A study of Mus musculus with 8 samples.

Results

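The genes described here are 10 apolipoprotein genes of the mouse liver, *Apoa1*, *Apoa2*, *Apoa4*, *Apoa5*, *Apob*, *Apoc1*, *Apoc2*, *Apoc3*, *Apoe* and *Apom*. They were taken by symbol from a list, and they are 10 of the 23282 rows of the count tables. All mice are given by the labels as male C57BL/6 at 4 weeks of age. The control group received saline, and the endotoxemic group received an intraperitoneal injection of 25 mg/kg lipopolysaccharide (LPS), the endotoxin of gram-negative bacteria. For the LGK974 group the labels give only the agent, and by the study's methods these mice received 60 mg/kg LGK974, an inhibitor of Wnt signaling, together with 25 mg/kg LPS. Livers were taken 6 h after LPS, and LGK974 was given 2 h before LPS in most experiments. RNA was read from its 3′ end, so that a count does not grow with the length of a transcript and levels of different genes can be compared without a length correction. Levels are given as CPM, the count scaled by the library total and by the TMM method.

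The control and LGK974 groups had 2 libraries each and the endotoxemic group 4. Of the latter, numbers 3 and 4 repeated the counts of numbers 1 and 2 on all 23282 rows and were counted once, which left 2 distinct libraries per group. Total counts were between 9142116 and 15222439. The sex-linked transcripts did not match the label in every group. *Xist*, transcribed from the inactive X chromosome of females, had 1444 and 3115 counts after saline, 1171 and 1884 after LPS alone, but 3 and 7 with LGK974. The Y-linked *Ddx3y* had 0 counts in every control and endotoxemic library but 1755 and 1392 with LGK974. The 4 libraries labelled control and endotoxemic thus go against their label of male mice, and in every comparison with the LGK974 group sex and LGK974 cannot be told apart. Most rows of the tables follow the genes along the chromosomes, and 581 rows carry the symbol of a gene over 2 Mb away. All 10 apolipoprotein rows stood in order. Within 2 rows on either side, *Apoa2* had 1 such neighbour, labelled *C5ar2* at the place of *Fcer1g*, and *Apoc2* had 1. The next apolipoprotein to such a row was *Apom*, with *Fpr-rs6* at the place of *Aif1* 3 rows away.

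Apolipoproteins are the proteins of lipoproteins, the particles that carry cholesterol and triglyceride in plasma. The liver secretes most of them, either on very low density lipoprotein (VLDL), which is built around apolipoprotein B, or as parts of high density lipoprotein (HDL), which is built around apolipoprotein A1. Others ride on both kinds of particle and set how fast lipoprotein lipase empties them and how receptors take them up. In the acute phase response of the liver the plasma lipoproteins are known to change in amount and make-up.

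Of the 10 genes, 7 lie in a pair of clusters. On GRCm38 the first cluster, on chromosome 9, holds *Apoa1* (chr9:46228580-46230466, plus strand), *Apoc3* (chr9:46232933-46235636, minus strand), *Apoa4* (chr9:46240696-46243459, plus strand) and *Apoa5* (chr9:46268633-46271919, plus strand). The cluster on chromosome 7 holds *Apoc2* (chr7:19671579-19677941), *Apoc1* (chr7:19689481-19692660) and *Apoe* (chr7:19696109-19699188), all on the minus strand. Elsewhere are *Apoa2* (chr1:171225054-171226379, plus strand), *Apob* (chr12:7977648-8016835, plus strand) and *Apom* (chr17:35128997-35132050, minus strand). These spans are whole protein-coding genes, with introns, from the GENCODE annotation. *Apoc2* overlaps a readthrough gene, listed as *Apoc4-apoc2*, whose row held between 96.4% and 98% as many counts as the row of *Apoc2* in each library. Reads of the pair cannot be told apart, and the level of *Apoc2* stands for both.

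In each cluster some genes were higher with LGK974 than after LPS alone and others were not, as described further on, although the direct neighbours *Apoe* and *Apoc1* had like changes. Printed are the promoters of *Apoe* and *Apoc2*, which parted in this way, and of *Apoa1* and *Apoa4*, the genes of the other cluster whose LGK974 libraries both lay above the endotoxemic ones. They run from 250 bases before to 50 after the start site of RefSeq on GRCm38, in transcript direction. RefSeq's table gave such a sequence for 8 of the 10 genes. It gave none for *Apoc1* and *Apoc3*, so no word was searched in their promoters. From the cluster on chromosome 7 these are *Apoe* (chr7:19699139-19699438, minus strand), *Apoc2* (chr7:19677892-19678191, minus strand), and from chromosome 9 *Apoa1* (chr9:46228380-46228679, plus strand) and *Apoa4* (chr9:46240594-46240893, plus strand). The RefSeq start lies 50 bases downstream of the GENCODE start for *Apoa1* and 148 bases downstream for *Apoa4*. Capitals mark matches to the words searched.
Apoe: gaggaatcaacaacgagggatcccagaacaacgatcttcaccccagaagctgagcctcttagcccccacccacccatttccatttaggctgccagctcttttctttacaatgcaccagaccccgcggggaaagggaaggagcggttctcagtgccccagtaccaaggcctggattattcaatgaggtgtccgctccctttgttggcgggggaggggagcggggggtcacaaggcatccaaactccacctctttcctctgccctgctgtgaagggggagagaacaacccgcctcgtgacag
Apoc2: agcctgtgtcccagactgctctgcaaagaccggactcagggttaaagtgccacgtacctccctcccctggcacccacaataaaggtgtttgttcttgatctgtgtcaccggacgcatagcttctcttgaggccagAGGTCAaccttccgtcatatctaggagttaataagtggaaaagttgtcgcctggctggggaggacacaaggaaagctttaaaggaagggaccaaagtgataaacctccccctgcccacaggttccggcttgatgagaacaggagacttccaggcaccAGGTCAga
Apoa1: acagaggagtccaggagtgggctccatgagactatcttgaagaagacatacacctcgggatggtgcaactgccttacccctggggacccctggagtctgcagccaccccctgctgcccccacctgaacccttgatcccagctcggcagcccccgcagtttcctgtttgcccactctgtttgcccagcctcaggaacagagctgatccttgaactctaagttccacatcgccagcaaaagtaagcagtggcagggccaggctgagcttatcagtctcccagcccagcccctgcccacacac
Apoa4: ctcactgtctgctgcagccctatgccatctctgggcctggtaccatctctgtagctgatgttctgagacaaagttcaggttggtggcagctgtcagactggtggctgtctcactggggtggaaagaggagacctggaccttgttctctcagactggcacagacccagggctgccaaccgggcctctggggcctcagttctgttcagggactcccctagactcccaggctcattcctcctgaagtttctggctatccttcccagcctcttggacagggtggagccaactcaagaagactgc

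The words were searched on both strands and none of the matches overlapped another. The nuclear receptor half-site AGGTCA was found only in the promoter of *Apoc2* among the 8, from 115 to 110 bases before the start and again from 43 to 48 bases after it, and 16.3% of 32851 RefSeq promoters of the same length hold it. The TATA word TATAAA was found in 3 of the 8 (*Apoa2*, *Apoa5* and *Apob*) and in 13.6% of all promoters. The C/EBP-type word TTNNGNAA was found in 1 of the 8, *Apob*, against 40.7% of all. The HNF4A-type word CAAAGTCCA and the NF-κB-type word GGNNTTTCC were in none of the 8, and in 0.475% and 5.82% of all promoters. These are matches of letters and not sites of binding.

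In the control livers *Apoe* stood far above the others. It encodes the ligand through which remnant lipoproteins are taken up by receptors of the LDL receptor family. Its level was 33810 and 31660 CPM, the third highest of all rows in both control libraries and 3.3% and 3.18% of all counts. It was followed by *Apoa2* with 7467 and 8998 CPM, and then by *Apoa1* (5987 and 5093 CPM) and *Apoc1* (5460 and 5304 CPM), whose libraries overlapped. *Apoc3* had a mean of 3201 CPM ± 73.7 (SD, n = 2), *Apoa5* 899 CPM ± 33.1, *Apom* 430.6 CPM ± 4.67, *Apoc2* 346.4 CPM ± 1.85 and *Apob* 244.7 CPM ± 23.2. *Apoa4* was lowest at 82.81 CPM ± 11.5, still far above the CPM of 0.196 to 0.327 that 3 counts make in a library. From *Apoc1* down to *Apoa4* no neighbours in this order overlapped. In the endotoxemic group *Apoc1* (3001 and 3090 CPM) came before *Apoa1* (3089 and 2437 CPM) by its mean, with overlap, and *Apom* (188.1 and 184.5 CPM), *Apob* (169 and 195.9 CPM) and *Apoc2* (142.1 and 159.8 CPM) followed each other, the first pair with overlap. In the LGK974 group the order was *Apoe*, *Apoa1*, *Apoa2*, *Apoc1*, *Apoc3*, *Apoa5*, *Apoc2*, *Apob*, *Apom* and *Apoa4*, and the libraries of *Apob* overlapped with those of *Apoc2* and *Apom*.

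**Figure D1:**
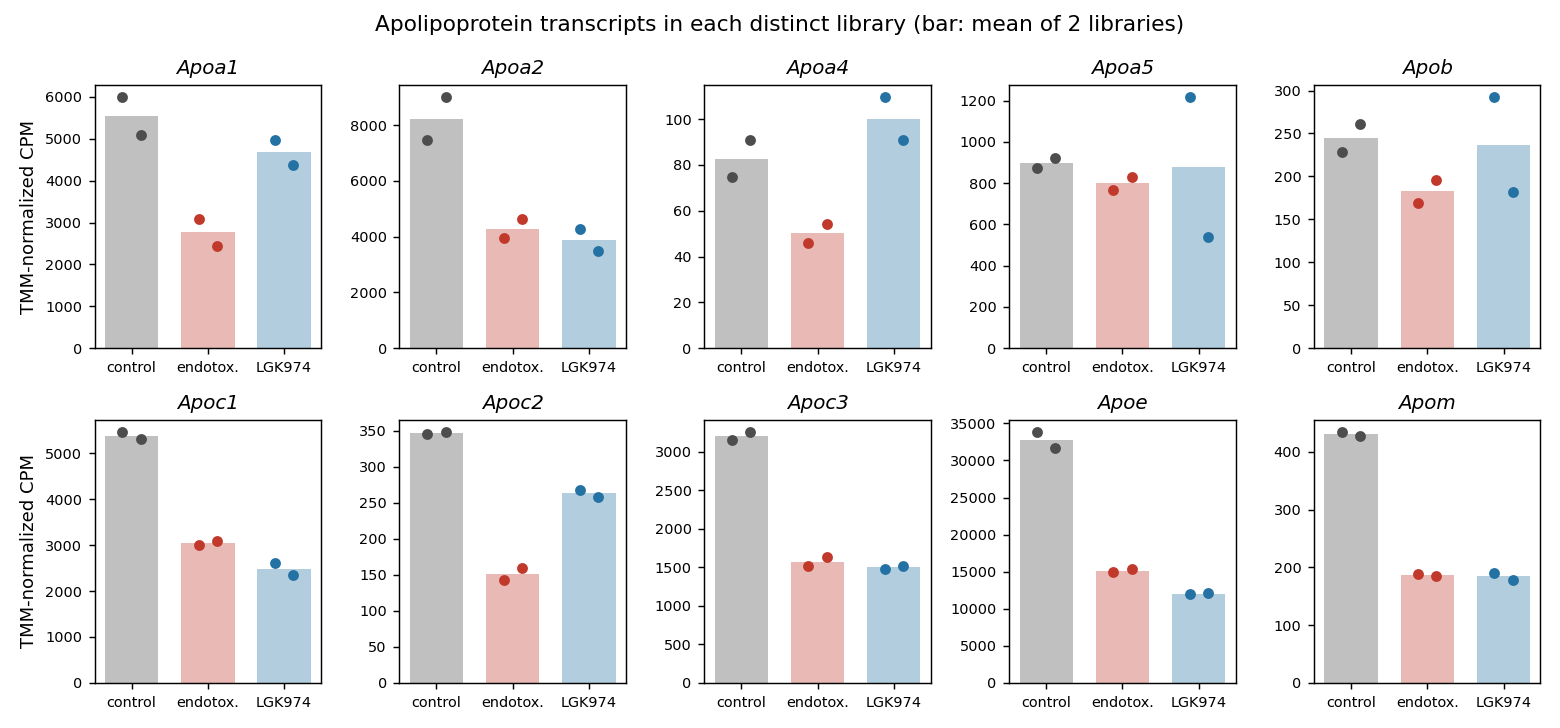
TMM-normalized CPM (y axis, linear, a scale of its own for each gene) of the 10 apolipoprotein genes in the control, endotoxemic and LGK974 groups. Points are the 2 distinct libraries of a group and bars their mean. All 10 endotoxemic pairs lie below the control pair, and in the LGK974 group *Apoa1*, *Apoa4* and *Apoc2* lie above the endotoxemic pair while *Apoe* and *Apoc1* lie below it.

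The first comparison asked how endotoxemia changed these transcripts in the liver. Of the 10 genes 8 fell and 0 rose, by edgeR's quasi-likelihood test at an adjusted p under 0.05. Among all 12701 rows tested, 23.0% were lower and 20.4% higher by the same rule. The median change of the 10 was −0.97 on the log2 scale, against 0.01 over all rows tested. All 10 had both endotoxemic libraries below both control libraries, which held for 39.2% of all rows. In bulk liver, fewer hepatocytes and less RNA per hepatocyte cannot be told apart. No label says that libraries came from separate mice, so the p-values measure only the spread between these libraries.

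The 10 genes held 5.64% and 5.66% of all counts after saline. After LPS alone they held 2.79% and 2.93%, and with LGK974 2.68% and 2.54%. The groups given LPS therefore held the lower shares, without overlap with the control group.

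**Figure D2:**
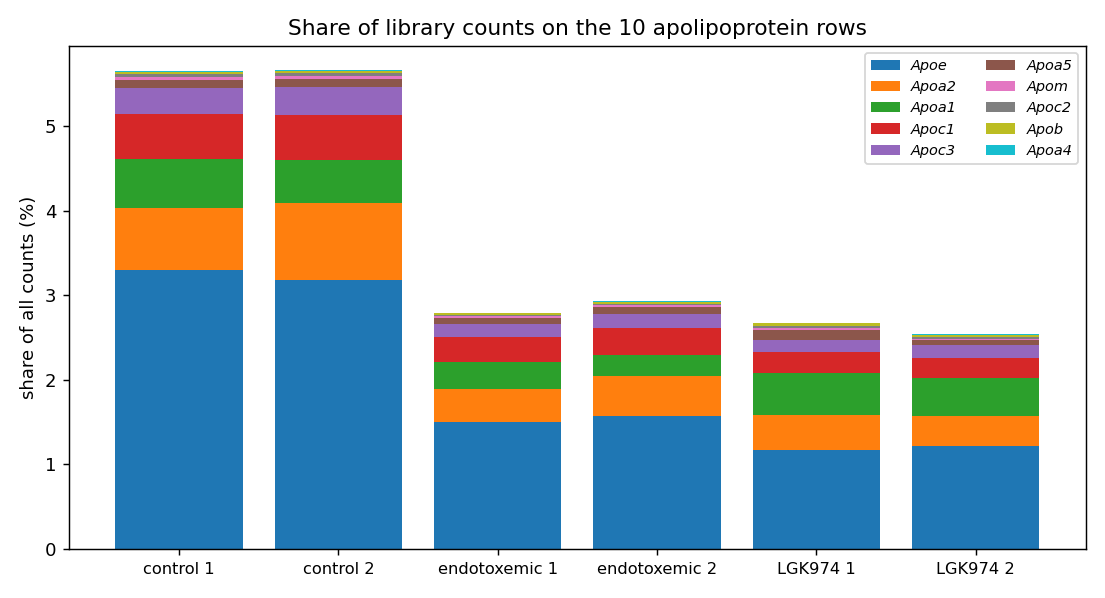
Share of all counts of a library (y axis, percent) held by the 10 apolipoprotein genes, stacked by gene, in the 6 distinct libraries. The control bars reach 5.64% and 5.66% and the other 4 bars lie between 2.54% and 2.93%; *Apoe* is the largest part of each bar.

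*Apoe* had 14940 and 15330 CPM in the endotoxemic group, below both control libraries. It was 2.16-fold lower (log2 fold change −1.11, SE 0.18, adjusted p = 0.00124). By rank of counts it went from the third row in both control libraries to ranks 8 and 9. *Apoc1*, which encodes a small apolipoprotein that hinders the uptake of remnants, had 3001 and 3090 CPM and was 1.77-fold lower than in the control group (log2 fold change −0.82, SE 0.18, adjusted p = 0.00611). Its call was lost without control library 1 or without endotoxemic library 1, where the log2 fold change was −0.80 and −0.74.

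The pair of genes that act on lipoprotein lipase in opposite ways fell together. *Apoc2*, the cofactor that lipoprotein lipase needs, had 142.1 and 159.8 CPM in endotoxemic livers against 345.1 and 347.7 CPM after saline. It was 2.3-fold lower (log2 fold change −1.20, SE 0.18, adjusted p = 0.000761). *Apoc3*, an inhibitor of lipoprotein lipase and of remnant uptake, had 1515 and 1631 CPM against 3149 and 3253 CPM. Its fall was 2.03-fold (log2 fold change −1.02, SE 0.18, adjusted p = 0.00178).

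The genes of HDL proteins fell as well. *Apoa1*, the main protein of HDL, had 3089 and 2437 CPM in the endotoxemic group and was 2-fold lower (log2 fold change −1.00, SE 0.21, adjusted p = 0.00437). *Apoa2*, the other major HDL protein, had 3936 and 4643 CPM and was 1.92-fold lower (log2 fold change −0.94, SE 0.21, adjusted p = 0.00618). *Apom*, which carries sphingosine 1-phosphate on HDL, had 188.1 and 184.5 CPM against 433.9 and 427.3 CPM. It was 2.31-fold lower (log2 fold change −1.21, SE 0.18, adjusted p = 0.000657), a fall that its SE does not set apart from that of *Apoc2*. *Apoa4*, found on chylomicrons and HDL, had 45.94 and 54.26 CPM against 74.72 and 90.91 CPM, and its log2 fold change was −0.73 (SE 0.21, adjusted p = 0.0203). The call of *Apoa4* was lost when any library of either group was left out, with a log2 fold change between −0.86 and −0.55. That of *Apoa2* was lost without control library 2 (−0.80) or endotoxemic library 1 (−0.77), and that of *Apoa1* without endotoxemic library 2 (−0.84).

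The remaining 2 genes did not pass the test. *Apoa5*, which promotes the clearance of triglyceride, had 767.1 and 831.7 CPM against 875.5 and 922.4 CPM. Its log2 fold change was −0.17 with a 95% interval of −0.90 to 0.56 (adjusted p = 0.702). *Apob*, which encodes the structural protein of VLDL and LDL, had 169 and 195.9 CPM against 228.2 and 261.1 CPM. Its log2 fold change was −0.42 with a 95% interval of −0.98 to 0.13 (adjusted p = 0.194). Both pairs of libraries were separate, but the intervals include no change as well as a fall close to that of the other 8 genes. *Apob* passed the threshold when only the libraries of these 2 groups were fitted, with a log2 fold change of −0.39, or when either LGK974 library was left out (−0.42).

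**Figure D3:**
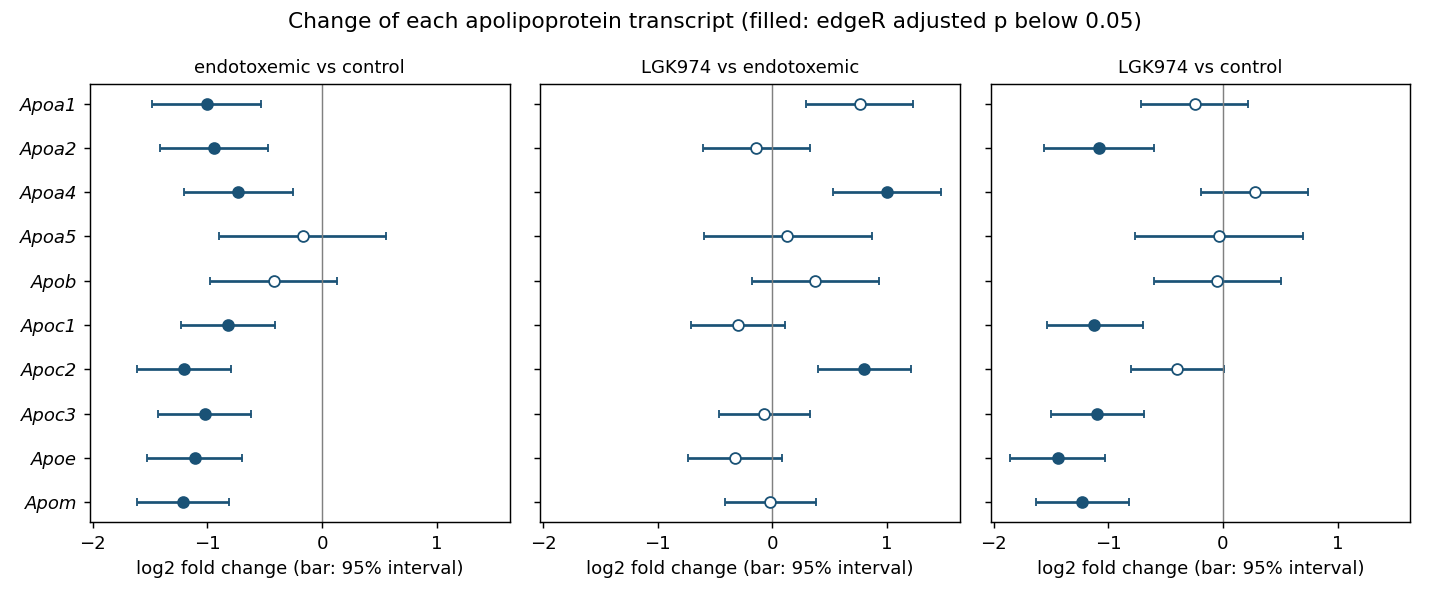
Log2 fold change (x axis) of each apolipoprotein gene in the 3 comparisons, with 95% intervals as bars. Filled points have an edgeR adjusted p below 0.05. In the endotoxemic group 8 of 10 are filled and below 0; between the LGK974 and endotoxemic groups *Apoa4* (1.00) and *Apoc2* (0.80) are filled and above 0; between the LGK974 and control groups 5 are filled and below 0.

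The hepatocyte and cholangiocyte markers that passed the test fell, and those of neutrophils and red cells rose. The lists of macrophages, sinusoidal endothelial cells and stellate cells had falls as well as rises. Of a list of 10 hepatocyte genes 7 were on rows in order, and 5 of these were lower and 0 higher in the endotoxemic group, with a median log2 fold change of −1.48, against 23.0% lower, 20.4% higher and a median of 0.01 over all rows, which are the shares for the other cell lists too. *Alb* (albumin) changed by −1.17 (SE 0.31, adjusted p = 0.0138) and *Ttr* (transthyretin, a carrier of thyroid hormone and retinol) by −1.48 (SE 0.21, adjusted p = 0.000465), and *Trf* (−0.25) and *Tat* (−0.26) did not pass the test. The summed level of the 7 was 111200 and 79570 CPM after saline, 51520 and 34850 CPM after LPS alone, and 36840 and 36070 CPM with LGK974. The 5 neutrophil genes on rows in order summed to 1.762 and 2.351 CPM, 94.66 and 108.2 CPM, and 70.31 and 65.26 CPM in that order. Genes of red cells summed to 2741 and 2962 CPM, 6566 and 7701 CPM, and 4170 and 2712 CPM in the same order. After LPS alone 5 of 5 neutrophil genes were higher than after saline, with a median log2 fold change of 7.43. Of the 5 red cell genes tested 4 were higher and 0 lower, with a median of 1.32. Genes of sinusoidal endothelial cells summed to 265.7 and 274.2 CPM, 415.4 and 412.7 CPM, and 445.3 and 566.6 CPM, although 4 of 7 were lower and 1, *Lyve1*, higher after LPS alone than after saline, with a median log2 fold change of −1.24. Genes of stellate cells summed to 429.1 and 438.8 CPM, 584.2 and 537.2 CPM, and 450.7 and 546 CPM, with 3 of 7 lower, 1 higher (*Dcn*) and a median of −1.08. Genes of cholangiocytes summed to 20.87 and 23.51 CPM, 10.03 and 9.374 CPM, and 14.56 and 21.64 CPM, with 2 of 5 lower, 0 higher and a median of −2.46. The part of these markers in the fall of the apolipoproteins was not tested. *Apoa1*, *Apoa4* and *Apob* are also made by enterocytes, and of 8 enterocyte genes 4 had 0 counts in every library, among them *Lct*, *Sis* and *Alpi*. The sum of the 8 was between 34.62 and 64.28 CPM, most of it on *Fabp2*, whose counts were 684 and 952 after saline, 339 and 315 after LPS alone and 734 and 840 with LGK974.

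The second comparison asked what the LGK974 group showed beside the endotoxemic group. Here 2 of the 10 genes were higher (*Apoa4* and *Apoc2*) and 0 were lower, against 2.80% of all rows higher and 2.82% lower. Both libraries of the LGK974 group were above both endotoxemic libraries for 3 of the 10 genes and below them for 2. Among all rows these shares were 26.5% and 26.0%. The median log2 fold change of the 10 was 0.06, against 0.03 over all rows. The log2 fold changes of the 10 went both ways, from −0.33 to 1.00.

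*Apoa4* had 109.5 and 91.02 CPM in the LGK974 group, above both endotoxemic libraries (45.94 and 54.26 CPM) and, by a narrow margin in library 2, above both control libraries (74.72 and 90.91 CPM). It was 2-fold higher than in the endotoxemic group (log2 fold change 1.00, SE 0.21, adjusted p = 0.0284). *Apoc2* had 268.1 and 258.4 CPM, between the endotoxemic and the control libraries. It was 1.74-fold higher than in the endotoxemic group (log2 fold change 0.80, SE 0.18, adjusted p = 0.0371). Both calls were lost when only these 2 groups were fitted, with an adjusted p of 0.0645 for *Apoa4* and 0.0952 for *Apoc2*, and also without any 1 control or endotoxemic library. Over all alternatives the log2 fold change stayed between 0.86 and 1.13 for *Apoa4* (adjusted p from 0.00125 to 0.25) and between 0.69 and 0.89 for *Apoc2* (adjusted p from 0.0013 to 0.299).

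*Apoa1* had 4978 and 4373 CPM, above both endotoxemic libraries and below both control libraries. Its log2 fold change was 0.76 with a 95% interval of 0.29 to 1.23, and its adjusted p of 0.0681 missed the threshold in edgeR. With DESeq2's Wald test it passed, with a log2 fold change of 0.74 (adjusted p = 0.0186). Without filtering low counts (adjusted p = 0.0105) and without either LGK974 library it also passed. Over all alternatives the log2 fold change was between 0.60 and 0.91 and the adjusted p between 0.00711 and 0.381.

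*Apoe* and *Apoc1* were the 2 of the 10 genes with both LGK974 libraries below both endotoxemic ones, against 26.0% of all rows. By their means *Apoa2*, *Apoc3* and *Apom* were lowest in the LGK974 group as well, with overlap. *Apoe* was at 11990 and 12060 CPM, below both endotoxemic libraries, and its log2 fold change was −0.33 (95% interval −0.74 to 0.08, adjusted p = 0.315). *Apoc1* was at 2614 and 2343 CPM, again below both endotoxemic libraries, and its log2 fold change was −0.30 (95% interval −0.71 to 0.11, adjusted p = 0.367). Neither difference passed the test. *Apoe* is also made by macrophages, and the 9 Kupffer cell and macrophage genes on rows in order summed to 247.1 and 254.4 CPM after saline, 241.2 and 246.4 CPM after LPS alone and 151.8 and 188 CPM with LGK974. This sum hides opposite changes, since after LPS *Marco* was higher than after saline (log2 fold change 3.70) and *Vsig4* (−2.76), *Clec4f* (−0.89), *C1qa* (−0.84) and *C1qc* (−0.93) were lower. Between LGK974 and LPS alone 1 of the 9 passed the test, *Clec4f* (−1.30, adjusted p = 0.0187), and the median of the 9 was −0.51. Over all rows 2.82% were lower and 2.80% higher, with a median of 0.03. Their part in the level of *Apoe* was not tested.

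For *Apoa2*, *Apoc3* and *Apom* the LGK974 and endotoxemic libraries overlapped. *Apoc3* had 1478 and 1518 CPM in the LGK974 group (log2 fold change −0.07, 95% interval −0.47 to 0.33), and *Apom* had 190.6 and 177.7 CPM (log2 fold change −0.02, 95% interval −0.41 to 0.38). *Apoa2* had 4286 and 3503 CPM (log2 fold change −0.14, 95% interval −0.61 to 0.33). These intervals leave room for changes of about the size seen for *Apoe* and *Apoc1*.

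*Apoa5* and *Apob* differed most within the LGK974 group. *Apoa5* had 1215 CPM in library 1 and 540.6 CPM in library 2, one above and the other below every other library, a ratio of 2.25 against 1.05 in the control and 1.08 in the endotoxemic group. *Apob* had 291.9 and 181.3 CPM, a ratio of 1.61. The log2 fold change between the LGK974 and endotoxemic groups was 0.13 for *Apoa5* (SE 0.32, adjusted p = 0.842) and 0.37 for *Apob* (SE 0.25, adjusted p = 0.402). For *Apoa5* it was −0.56 without LGK974 library 1 and 0.60 without library 2, and for *Apob* −0.01 and 0.68. With the lone LGK974 library taken to vary like the other groups, *Apoa5* passed the threshold in both directions (adjusted p = 0.0353 and 0.0312) and *Apob* did without library 2 (adjusted p = 0.0327). The direction of both thus rested on which LGK974 library was kept. The same libraries held 4.8% and 9.38% of their counts on the 45S ribosomal RNA, against 7.17% to 8.26% in the others, and whether this bears on *Apoa5* and *Apob* was not tested.

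**Figure D4:**
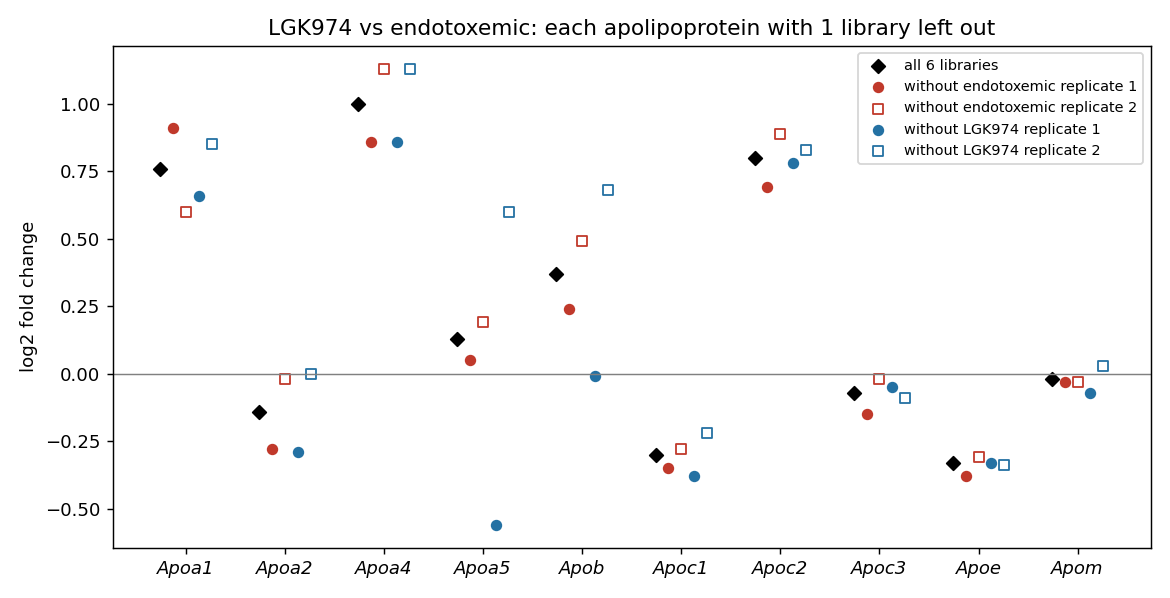
Log2 fold change between the LGK974 and endotoxemic groups (y axis) of each apolipoprotein gene with all 6 libraries (diamonds) and with 1 library of either group left out. *Apoa5* lies at −0.56 and at 0.60 depending on the LGK974 library left out, while *Apoa4* stays between 0.86 and 1.13 and *Apoc2* between 0.69 and 0.89.

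Within the clusters the counts of neighbours were compared in the same library, a ratio in which the scaling of the library cancels. The ratio of *Apoc2* to *Apoc1* counts was 0.0632 and 0.0656 after saline, 0.0473 and 0.0517 after LPS alone and 0.103 and 0.11 with LGK974. On chromosome 9 the ratio of *Apoa4* to *Apoc3* was 0.0237 and 0.0279, 0.0303 and 0.0333, and 0.0741 and 0.0599 in the same order. *Apoa1* to *Apoc3* was 1.9 and 1.57, 2.04 and 1.49, and 3.37 and 2.88. Outside the clusters the ratio of *Apoa1* to *Apoa2*, the main HDL proteins, was 0.802 and 0.566, 0.785 and 0.525, and 1.16 and 1.25, again in that order. In these 4 ratios both LGK974 libraries lay above every other library, and the control and endotoxemic libraries overlapped for the ratios with *Apoa1*. The ratio of *Apoe* to *Apoc1*, direct neighbours on chromosome 7, was 6.19 and 5.97 after saline, 4.98 and 4.96 after LPS alone and 4.59 and 5.15 with LGK974, below the control libraries and on either side of the endotoxemic ones. These ratios were chosen after values had been seen and were not tested. Of the counts on the 10 genes, *Apoe* held 58.5% and 56.2% after saline, 53.8% and 53.7% after LPS alone, and 43.7% and 48.1% with LGK974. *Apoa1* held between 8.54% and 11.1% of them in the first 4 of these libraries and 18.2% and 17.5% with LGK974.

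The third comparison set the LGK974 group against the control group, which differ in LPS, in LGK974 and in the sex-linked transcripts. Of the 10 genes 5 were lower (*Apoa2*, *Apoc1*, *Apoc3*, *Apoe* and *Apom*) and 0 higher. Over all rows 17.7% were lower and 16.4% higher. Libraries were separate and lower for 7 genes and separate and higher for 1, *Apoa4*, against 34.3% and 33.8% of all rows. The median of the 10 was −0.74 on the log2 scale, against 0.02 over all rows. This comparison shares the control libraries with the first and the LGK974 libraries with the second, so it is no separate evidence for either.

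*Apoe* was 2.72-fold lower with LGK974 than after saline (log2 fold change −1.44, SE 0.19, adjusted p = 0.000389). *Apom* was 2.34-fold lower (log2 fold change −1.23, adjusted p = 0.000826), *Apoc1* 2.17-fold lower (−1.12, adjusted p = 0.00167), *Apoc3* 2.14-fold lower (−1.10, adjusted p = 0.0017) and *Apoa2* 2.11-fold lower (−1.08, adjusted p = 0.00415). All 5 calls were kept under each of the 19 alternatives, with an adjusted p of at most 0.0479, that of *Apoa2*. *Apoc2* had a log2 fold change of −0.40 (95% interval −0.80 to 0.01, adjusted p = 0.118), *Apoa1* −0.24 (−0.71 to 0.22, adjusted p = 0.396) and *Apoa4* 0.28 (−0.19 to 0.74, adjusted p = 0.337). *Apob* was at −0.05 (−0.60 to 0.51) and *Apoa5* at −0.03 (−0.77 to 0.70), and the direction of both changed with the LGK974 library left out and with the scaling. *Apoa5* was lower here without LGK974 library 1 (−0.73, adjusted p = 0.00447) and higher without library 2 (0.44, adjusted p = 0.0438). In the LGK974 livers *Apoa1* (mean 4676 CPM ± 428, SD, n = 2) stood above *Apoa2* (3894 CPM ± 554), the reverse of their order in the control and endotoxemic means.

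The wider lipoprotein genes were counted from 6 lists, of other apolipoproteins, HDL enzymes and serum amyloid A, assembly and secretion, receptors and uptake, triglyceride lipolysis, and transcription factors of apolipoprotein genes. Of 91 genes listed 79 were on rows in order and 74 of these were tested. In the endotoxemic group 46 were lower and 8 higher than in the control group, with a median log2 fold change of −1.01. Over all rows tested 23.0% were lower and 20.4% higher, with a median of 0.01, and the counts of each list that follow stand beside these shares.

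Among the other apolipoproteins 4 of 10 were lower and 1 higher in the endotoxemic group. *Apoc4*, between *Apoc2* and *Apoc1* on chromosome 7, had 17804 and 26627 counts after saline and 5486 and 5759 after LPS alone (log2 fold change −1.48, SE 0.18, adjusted p = 0.000239). *Apol7a* fell from 2023 and 2987 counts to 58 and 51 (log2 fold change −5.02). *Apol10b* had 0 and 4 counts, then 69 and 59, and with LGK974 18 and 10.

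Of 17 genes for the assembly and secretion of lipoproteins 9 were lower and 3 higher. *Mttp*, the transfer protein that loads apolipoprotein B with lipid, fell by 3.14 on the log2 scale (SE 0.26, adjusted p = 2.49e-05), and *A1cf*, a factor of *Apob* mRNA editing, fell by 3.84. *Abca1*, the transporter that gives lipid to apolipoprotein A1, rose by 2.11 (SE 0.32, adjusted p = 0.00071), and *Surf4*, a cargo receptor for lipoprotein export from the endoplasmic reticulum, by 0.78, with the call of *Surf4* lost without either control library (adjusted p = 0.0782 and 0.0566). Of 6 HDL enzymes tested 4 were lower, among them hepatic lipase *Lipc* (−1.85) and *Pon1* (−1.26), a lactonase carried on HDL.

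Of 11 genes for receptors and uptake 8 were lower and 2 higher. *Vldlr* (VLDL receptor) had a log2 fold change of −4.27 and *Abcg8*, a sterol transporter into bile, of −3.52. *Apobr*, a receptor of apolipoprotein B, rose by 1.5 on 12 to 34 counts, a call that was lost without any 1 control or endotoxemic library (adjusted p from 0.106 to 0.16). Of 6 genes for triglyceride lipolysis 4 were lower and 0 higher, among them *Gpihbp1*, which anchors the lipase on capillaries (−2.18, adjusted p = 0.000161).

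Of 24 transcription factors of these genes 17 were lower and 2 higher. *Ppara*, the fatty acid receptor that drives lipid oxidation genes, had 3159 and 5510 counts after saline and 118 and 150 after LPS alone (log2 fold change −4.50, SE 0.38, adjusted p = 2.63e-05). *Nr0b2*, a repressor among nuclear receptors, had 366 and 611 counts against 0 and 2. *Foxa3*, a hepatocyte factor, rose by 1.68 and *Srebf2*, a regulator of cholesterol synthesis, by 0.89. The call of *Srebf2* was lost without either control library or without endotoxemic library 1 (adjusted p of up to 0.159). *Hnf4a*, the nuclear receptor best known for driving apolipoprotein genes in hepatocytes, had a log2 fold change of −0.16 (SE 0.19, adjusted p = 0.539) here and of 0.14 (SE 0.19, adjusted p = 0.704) in the comparison of LGK974 with LPS alone.

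**Figure D5:**
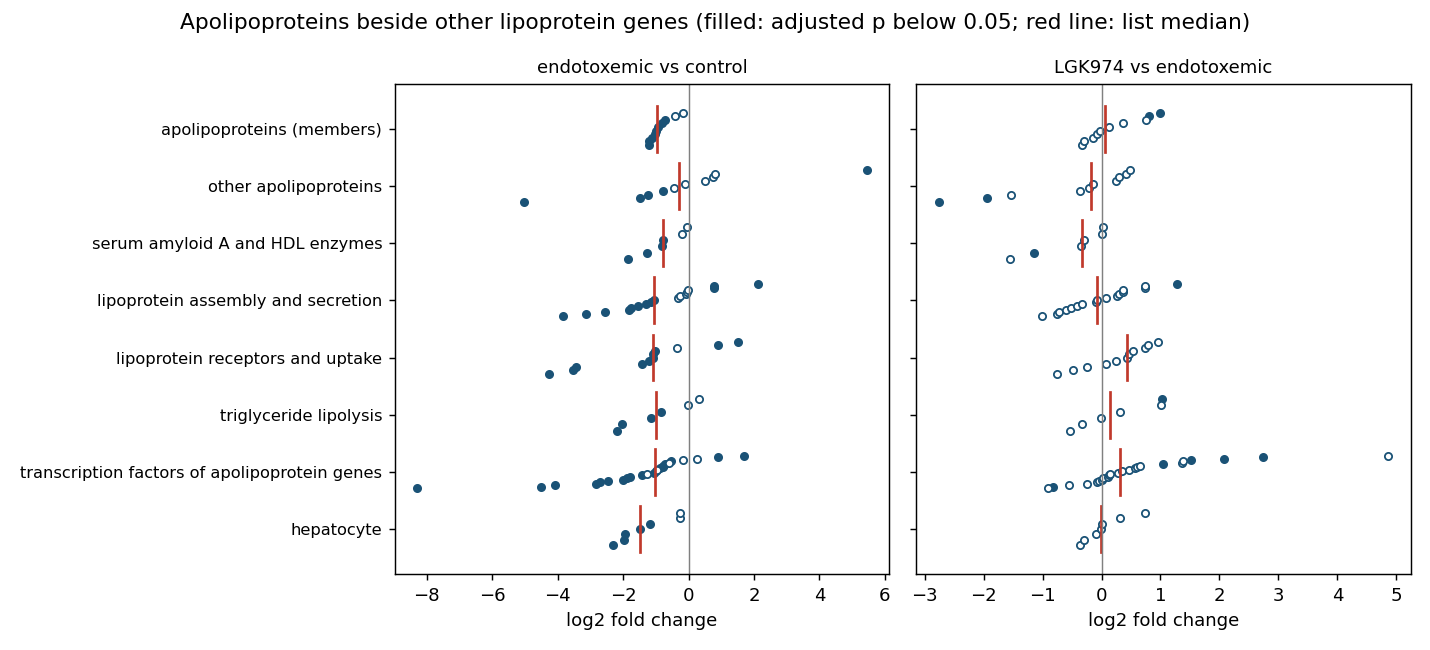
Log2 fold change (x axis, a scale of its own in each panel) of the tested genes of each list on rows in order, for the apolipoproteins, the wider lipoprotein lists and the hepatocyte markers. Filled points have an edgeR adjusted p below 0.05 and red lines are list medians. In the endotoxemic group the apolipoproteins have a median of −0.97 and the hepatocyte markers of −1.48; between the LGK974 and endotoxemic groups the medians are 0.06 and −0.01.

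Between the LGK974 and endotoxemic groups 6 of the 74 wider genes were higher and 4 lower, with a median log2 fold change of 0.09, against 2.80% higher, 2.82% lower and a median of 0.03 over all rows. Of the transcription factors 4 were higher. They were *Ppara* with 813 and 1947 counts (log2 fold change 2.74, SE 0.35, adjusted p = 0.00514) and *Nr1d2*, a clock repressor (2.07, SE 0.29, adjusted p = 0.00694). The others were *Nr2f2*, a nuclear receptor (1.51, SE 0.34, adjusted p = 0.0372), and *Creb3l3*, a liver factor (1.04, SE 0.19, adjusted p = 0.0173). *Creb3l3* had 3005 and 4319 counts after saline, 1321 and 1303 after LPS alone and 3542 and 4658 with LGK974. *Nr2f2* had 1318 and 1890, 361 and 291, and 825 and 2048 counts in the same order. *Creb3l3*, *Nr2f2* and *Hnf4a* fall outside the rule for named genes and were named after their values had been seen. The part of these factors in the levels of the apolipoproteins was not tested. *Cebpa*, a hepatocyte factor, was lower (−0.83, adjusted p = 0.0446). Its call was lost in edgeR with upper-quartile scaling (adjusted p = 0.0555), with the replicate number as a block (0.0532) and with only the 2 groups fitted (0.102). *Mttp* was higher, with 304 and 537 counts (1.28, SE 0.25, adjusted p = 0.0229), and *Angptl4*, an inhibitor of lipoprotein lipase, was higher (1.02, SE 0.24, adjusted p = 0.0407). *Pon1* was lower (−1.14, adjusted p = 0.0154), as were *Apol9a* (−1.95, adjusted p = 0.0305) and *Apol10b* (−2.76, adjusted p = 0.046). Between the groups 0 of the 11 genes for receptors and uptake passed the test, with a median of 0.43. Among the hepatocyte markers 0 of 7 passed, with a median of −0.01. All 10 calls among the 74 wider genes, *Creb3l3* included, were lost without endotoxemic library 1 and also without library 2. Over all alternatives the highest adjusted p was 0.0675 for *Ppara* and 0.095 for *Nr1d2*.

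Between the LGK974 and control groups 43 of the 74 were lower and 6 higher, with a median of −1.03, against 17.7% lower, 16.4% higher and a median of 0.02 over all rows. Large falls were those of *A1cf* (−4.35), *Vldlr* (−4.02), *Abcg8* (−2.98), *Apol7a* (−4.53), *Pon1* (−2.39) and, among genes with counts in every library, the clock repressor *Nr1d1* (−2.69). *Dgat2*, which makes triglyceride, changed by −2.27, *Lipc* by −2.20, *Apoh* by −1.60 and *Lpl* (lipoprotein lipase) by −1.18. *Foxa3* (2.04), *Abca1* (1.49), *Angptl4* (1.35) and *Srebf2* (0.89) were higher, and *Apol10b* passed the test on 18 and 10 counts against 0 and 4. *Nr0b2*, with 3 and 96 counts, was lower. The call of *Apol10b* was lost without control library 1, LGK974 library 1 or either endotoxemic library (adjusted p of up to 0.162), and that of *Nr0b2* with DESeq2's Wald test (adjusted p = 0.122) and without either control library. The calls of *Srebf2* (without either control library), *Abca1* (without control library 1) and *Lpl* (without control library 2) were lost as well.

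Pattern likeness over the 6 libraries was measured as the mean absolute difference of log2 CPM, each gene centred on its own mean, among 6803 rows in order with a mean CPM of at least 10. Closest to *Apom*, with the lowest log2 fold change of the 10 between LPS alone and saline, were *Iah1* (0.042) and *Lyplal1* (0.049). *Iah1* had 145.4 and 136.8 CPM after saline, 65.8 and 59.9 CPM after LPS alone and 62.05 and 61.04 CPM with LGK974. Closest to *Apoa5*, with the highest log2 fold change in that comparison (−0.17), were *Id2* (0.061) and *Cul3* (0.095). *Id2* shared the split of the LGK974 libraries, with 561.1 CPM in library 1 and 260.5 CPM in library 2, against 390.7 to 437.4 CPM elsewhere.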

How the data were processed

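The authors made 3′-end libraries (Lexogen QuantSeq) from 500 ng liver RNA, and the count of reads on each row was deposited without normalization. The submitters' processing notes name Bowtie2, edgeR and mm10, and the counting program is not given in the sources used here. The members and lists were chosen with earlier results of these data known.

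R 4.3.3 and edgeR 4.0.16 were used. Rows were filtered by filterByExpr, which kept 12701, and scaled by TMM (factors 0.976 to 1.025). A single quasi-likelihood model of the group was fitted to the 6 distinct libraries (common biological coefficient of variation 0.239), with Benjamini-Hochberg adjustment over all rows at 0.05. SEs were derived from the test. Floors of 3 counts cover counting error only. On simulated data for endotoxemic against control, with 12701 genes and 200 changed, 21% of genes changed by 1 on the log2 scale and 85% of those changed by 2 were recovered, 6.2% of calls were false, and 0 genes were called where nothing was changed. The simulation gave every gene the common coefficient of variation and changed far fewer genes than were called in the data. The recovered shares therefore do not measure how well changes of the apolipoproteins were recovered.

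Besides the 10 members, named genes are the 2 that rose most and the 2 that fell most past the threshold in each wider list and comparison, from rows in order, and some that this rule picks are not reported here. Row order was compared with RefSeq positions on GRCm38. Of 23142 rows with a position 22352 were in order, and for 443 of the 581 out-of-order rows the gene of the place was matched. Alternatives were other scalings, other filters, DESeq2 1.42.0, the replicate number as a block, the identical libraries as separate samples, reassigned symbols, out-of-order rows or the 45S ribosomal RNA left out, only the compared groups, each library left out and, chosen after seeing the data, TMM without the members.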

Additional observations from a re-analysis of the deposited data

How the results depend on the processing

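Leaving out 1 library at a time gave 5 to 9 apolipoproteins lower after LPS than after saline (5 without endotoxemic library 1), 0 to 5 higher and 0 to 1 lower with LGK974 than after LPS alone, and 0 to 1 higher with LGK974 than after saline. Calls over all rows moved as well, from 1801 lower of 13337 without endotoxemic library 1 to 3523 of 13080 without LGK974 library 1 in the first comparison, and from 23 to 1175 higher between LGK974 and LPS alone. Between LGK974 and LPS alone the log2 fold change so ranged from −0.56 to 0.60 for *Apoa5*, from −0.01 to 0.68 for *Apob* and from −0.07 to 0.03 for *Apom*, and between LGK974 and saline from −0.73 to 0.44 for *Apoa5* and from −0.43 to 0.26 for *Apob*. The wider lipoprotein genes numbered 3 to 11 higher and 29 to 47 lower in the first comparison (29 without endotoxemic library 1), 0 to 15 higher and 0 to 11 lower in the second (0 without either endotoxemic library), and 3 to 9 higher in the third. For the 10 genes in the first comparison, 49 of the 60 log2 fold changes with a library left out kept direction and side of the threshold, 9 lost the call and 2 gained it. Under the other alternatives 129 of 130 did and 1 gained a call. Between LGK974 and LPS alone 45 of 60 did, 8 lost the call, 4 gained it and 3 reversed, and under the other alternatives 122 of 130 did, 2 lost it, 5 gained it and 1 reversed. Between LGK974 and saline 55 of 60 did, 1 gained the call and 4 reversed, and 125 of 130 did, 1 gained it and 4 reversed. With upper-quartile scaling *Apom* was at 0.03 between LGK974 and LPS alone, and *Apoa5* at 0.05 and *Apob* at 0.04 between LGK974 and saline. *Apoa5* was at 0 there without filtering low counts and with only the 2 groups fitted. Between LGK974 and LPS alone, fitting only those groups left 0 apolipoproteins higher and 2 higher and 1 lower of the wider genes. Over all 11925 rows 107 were then higher and 162 lower, against 356 and 358 of 12701 in the main fit. DESeq2's Wald test gave 11 higher and 7 lower wider genes, no filter 13 and 8, and the identical libraries as separate samples 18 and 13, with 1 apolipoprotein lower, *Apoe*. Calls over all rows rose too under these settings. They were 604 higher and 627 lower of 12701, 881 and 824 of 17263, and 1711 and 1548 of 12552 in that order. The same replicate number in 2 groups says nothing of shared mice in the sources used here, and same-numbered libraries deviated together with a correlation of 0.14, 0.061 and −0.007 in the 3 comparisons. With the replicate number as a block *Apoa1* passed the threshold between LGK974 and LPS alone (0.77, adjusted p = 0.0488). There 2 of the wider genes and 355 of all 12701 rows were lower. *Apobr* after LPS (adjusted p = 0.0553) and *Apol10b* with LGK974 against saline (0.0711) lost the call. Except where stated the cause was not tested. With a library left out, the higher and the lower calls over all rows moved in each of the 3 comparisons. The moves in the counts of the wider lipoprotein genes therefore cannot be read as particular to these genes. Whether their counts moved more than those of all rows was not tested. No scaling moved the median of all rows by more than 0.09 on the log2 scale.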

Other observations

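Some lipoprotein genes stand on rows out of genomic order, so that their symbol and the counts of the groups given LPS do not belong together. With the counts of the endotoxemic and LGK974 libraries taken from the row at the gene's own place, *Saa1*, *Saa2* and *Saa3*, which encode the acute phase apolipoproteins of HDL, were far higher after LPS. *Saa1* had 900 and 686 counts after saline and 180031 and 196891 after LPS alone, and 272768 and 342771 with LGK974. Its log2 fold change between LPS alone and saline was 8.30 in edgeR (SE 0.38, adjusted p = 4.33e-06). *Saa2* changed by 8.88 and *Saa3* by 9.55 between LPS alone and saline, and between LGK974 and LPS alone the 3 genes were at 0.11, 0.02 and −0.06. As deposited *Saa1*, *Saa2* and *Saa3* would read −12.6, −6.73 and −3.36. *Saa1* and *Saa2* are near-identical copies that counting can split, so their separate values are uncertain. *Saa4*, the constitutive member, changed by 1.43 (SE 0.23, adjusted p = 0.00117).

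On the same reassigned rows *Clu*, which encodes apolipoprotein J, had 14572 and 20518 counts after saline, 8883 and 9029 after LPS alone and 17317 and 16059 with LGK974. Its log2 fold change was −0.48 (SE 0.18, adjusted p = 0.0612) in the first comparison and 0.31 (SE 0.18, adjusted p = 0.355) between LGK974 and LPS alone. *Nr1h4*, the bile acid receptor, had 655 and 1016 counts, then 91 and 104, and 490 and 805 with LGK974. It fell by 2.60 on the log2 scale after LPS (adjusted p = 6.36e-05) and was higher by 2.12 with LGK974 (adjusted p = 0.00312). *Lrp1*, a receptor of remnants, fell by 1.39 after LPS (adjusted p = 0.00105), and *Pla2g7*, a phospholipase carried on lipoproteins, rose by 2.54 (adjusted p = 0.000478). The rows of these genes were matched by place and not by sequence.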
